A study of Mus musculus with 8 samples.

Results

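The proteasome is the complex that degrades most short-lived proteins of the cytosol and nucleus, and its constitutive genes were followed here in macrophages in 3 states of activation. Genes were taken by symbol, those that start with Psma, Psmb, Psmc, Psmd or Psme, and the 3 subunits Psmb8, Psmb9 and Psmb10 of the immunoproteasome were left out. Of 18193 genes with a probe that carries their symbol alone, 41 were members. They were 36 genes of subunits and activators, 3 chaperones that help to build the base (Psmd5, Psmd9 and Psmd10), and 2 genes that share only the letters, Psmc3ip and Psme3ip1. The members were not chosen by their values. Bone marrow cells of wild-type mice on the C57BL/6J background were grown with 20% L929 cell supernatant, a source of macrophage colony stimulating factor, and replated on day 7 of culture without it. For the next 24 hours M0 macrophages (3 arrays) had media alone, M1 macrophages (3 arrays) had 100 ng/ml LPS, a bacterial product, plus 20 ng/ml IFN-γ, the type II interferon, and M2 macrophages (2 arrays) had 20 ng/ml IL-4, the cytokine of type 2 immunity. The titles call the arrays biological replicates, by the design text those of a condition come from different mice, and the methods give 2 to 3 mice and also 2 to 3 in vitro replicates. Each n here counts arrays, and p-values measure the spread between them. No age is given in the sources used here.

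The proteasome has a barrel-shaped core and a regulatory particle that caps it. The core has outer α rings (the Psma genes), which form the gate, and inner β rings (Psmb), which hold the cutting sites. The regulatory particle has a base, with a ring of ATPases (Psmc) that unfolds substrates, and a lid (most Psmd genes), whose deubiquitinase strips off the ubiquitin chain. Other activators (Psme) can cap the core without ubiquitin. In cells exposed to IFN-γ the catalytic β subunits can be exchanged for those of the immunoproteasome, whose products serve MHC class I presentation. When proteasome activity is short, the transcription factor NFE2L1 is known to raise many of these genes through antioxidant response elements (ARE) in their promoters.

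Values are linear RMA intensities, in units, and all differences are differences of mean log2 intensity between conditions. A gene was called higher or lower at an adjusted p under 0.05 in limma, whatever the fold. The median intensity of an array was 38.9 to 40.4 units, and 39.8% to 40.6% of its probes were above 64 units. The 9 macrophage markers measured were above 64 units on all 8 arrays, the lowest at 453 units. Among them Cd14 was called higher and Cd68 and Mertk lower in M1. In M2 Fcgr1 (-3.28), Cd14 (-1.66), Mertk (-1.08), Adgre1 (-1.08) and Lyz2 (-0.38) were called lower. Of T cell, NK cell and erythroid markers none was above 64 units on any array. Of other cell types, 2 of 7 neutrophil markers, 1 of 4 of B cells, 2 of 4 of dendritic cells and 2 of 6 of fibroblasts and stroma were above 64 units on some array, and 1 of them on all 8 (Flt3, a dendritic cell marker, at 81.6 to 99.0 units). The highest value was 196 units (Col1a2, of fibroblasts). Fibroblast markers summed to 145 to 174 units in M0, 204 to 343 in M1 and 163 to 263 in M2. Among them Dcn, at 19.4 to 68.4 units, and Lum, at 9.69 to 18.3, were called higher in M1, and the others did not pass. B cell markers summed to 177 to 200, 124 to 170 and 166 to 169 units, with Cd79b lower in M1. Neutrophil markers summed to 243 to 333, 239 to 318 and 225 to 302 units, with Camp, at 16.1 to 36.6 units, higher in M1 and lower in M2. Dendritic cell markers summed to 181 to 198, 202 to 211 and 195 to 233 units. The part of these cells in the results was not tested, and macrophage markers summed to 80863 to 83396, 78216 to 79759 and 55703 to 59348 units. Summed intensities of Cxcl9, Il12b, Il6 and Ptgs2 were 70.4 to 84.9 units in M0 and 6811 to 11652 in M1, and those of Retnla, Chil3, Mgl2 and Socs2 were 99.2 to 118 units in M0 and 18833 to 18837 in M2. On arrays of whole cultures, more RNA per cell and more cells that make it cannot be told apart.

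The promoters of 5 members are shown because these genes had the largest rises in M1 among the core subunits (Psmb5, Psma6, Psmb3) and the chaperones (Psmd10, Psmd5). Each is the 250 bases before the RefSeq start, on GRCm38.p6 and in the direction of the gene. They lie at chr14:54617996-54618245 (Psmb5, minus strand), chr12:55383972-55384221 (Psma6, plus strand, the first of its 2 starts), chr11:97703184-97703433 (Psmb3, plus strand), chrX:140956712-140956961 (Psmd10, minus strand) and chr2:34870963-34871212 (Psmd5, minus strand). Capitals mark matches, on either strand, to an ARE (TGACNNNGC or TGAGNNNGC), a CCAAT box (CCAAT), the IFN-γ activated site GAS (TTCNNNGAA) or the interferon-stimulated element ISRE (GAAA, any 2 bases, GAAA).
Psmb5: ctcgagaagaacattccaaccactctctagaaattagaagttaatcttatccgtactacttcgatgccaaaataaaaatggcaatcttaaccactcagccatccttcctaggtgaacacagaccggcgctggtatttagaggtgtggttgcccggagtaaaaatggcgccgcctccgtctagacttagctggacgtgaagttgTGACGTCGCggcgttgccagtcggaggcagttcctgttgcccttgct
Psma6: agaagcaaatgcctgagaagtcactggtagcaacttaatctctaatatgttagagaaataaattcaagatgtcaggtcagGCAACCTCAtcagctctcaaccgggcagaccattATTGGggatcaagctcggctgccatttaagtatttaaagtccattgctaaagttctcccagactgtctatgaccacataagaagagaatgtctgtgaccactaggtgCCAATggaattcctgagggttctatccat
Psmb3: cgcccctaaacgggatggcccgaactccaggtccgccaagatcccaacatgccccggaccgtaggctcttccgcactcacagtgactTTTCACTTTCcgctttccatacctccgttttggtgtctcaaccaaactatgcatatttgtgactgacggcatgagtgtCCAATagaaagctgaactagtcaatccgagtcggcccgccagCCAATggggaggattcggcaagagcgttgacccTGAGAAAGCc
Psmd10: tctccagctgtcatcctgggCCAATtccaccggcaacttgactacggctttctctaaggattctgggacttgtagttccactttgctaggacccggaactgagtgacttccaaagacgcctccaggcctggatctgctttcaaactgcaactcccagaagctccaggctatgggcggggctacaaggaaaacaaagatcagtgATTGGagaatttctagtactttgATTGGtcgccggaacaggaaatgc
Psmd5: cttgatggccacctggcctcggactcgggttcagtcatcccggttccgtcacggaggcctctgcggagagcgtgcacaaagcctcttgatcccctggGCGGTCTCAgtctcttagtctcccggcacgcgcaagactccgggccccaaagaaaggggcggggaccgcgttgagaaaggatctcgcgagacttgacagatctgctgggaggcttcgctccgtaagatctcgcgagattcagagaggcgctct

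Psmb5, Psma6, Psmb3 and Psmd5 each held an ARE match in this stretch, and Psmd10 held CCAAT boxes alone. The promoter table, with 250 bases before and 50 after each start, held 25 of the 31 genes of the core, base and lid. An ARE of either form was found in 12 of these 25 (48%), a gene counting with a match at any of its starts, against 30.8% of all 27025 genes in the table counted alike. The 12 were Psma4, Psma5, Psma6, Psma7, Psmb3, Psmb5, Psmb6, Psmc2, Psmc6, Psmd1, Psmd12 and Psmd13. By form, TGACNNNGC was in 4 of the 25 (16%, against 14% of all genes) and TGAGNNNGC in 10 (40%, against 19.8%). Of the 20 genes in the table that rose in M1, 10 held an ARE, as did 2 of the 5 that did not pass. CCAAT boxes were in 10 of 25 (40%), against 41.1% of all genes. The interferon motifs were rare, with a GAS in Psmd2 alone (4%, against 9.55%) and an ISRE in Psmb3 and Psmd4 (8%, against 3.99%). A match describes letters in a window and is not a measured site.

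M1 macrophages had more RNA of most constitutive proteasome genes than M0 macrophages. With the probes chosen the rise was less than 2-fold in all but the chaperones Psmd10 and Psmd5. Of the 41 members, 28 were higher and 13 did not pass, while 13.7% of all 18193 genes were higher and 11.5% lower. No member was lower in limma, where 1 was lower at an unadjusted p under 0.05 (Psmc3ip), and the methods' t-test called 0 lower. After Benjamini-Hochberg adjustment that test called 19 members higher on log2 values and 17 on linear values. Among the 9936 genes with a mean of at least 64 units, 22.6% were higher and 18.3% lower. The arrays of M1 and M0 did not overlap in 33 members that were higher, against 21.8% of all genes and 3146 of these 9936. Over the 31 subunits of core, base and lid, 24 were higher, and the median log2 difference was 0.50 (1.41-fold), against 0.02 over all genes. By subcomplex, 13 of 14 core genes rose (median log2 difference 0.52), 6 of 9 base genes (0.44), 5 of 8 lid genes (0.35), all 3 chaperones (1.02) and 1 of 3 activators (0.29). Whether subcomplexes differed from each other was not tested. Of the 28 calls, 20 were made whichever array was left out, and without M0 replicate 3 the count was 20.

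**Figure D1:**
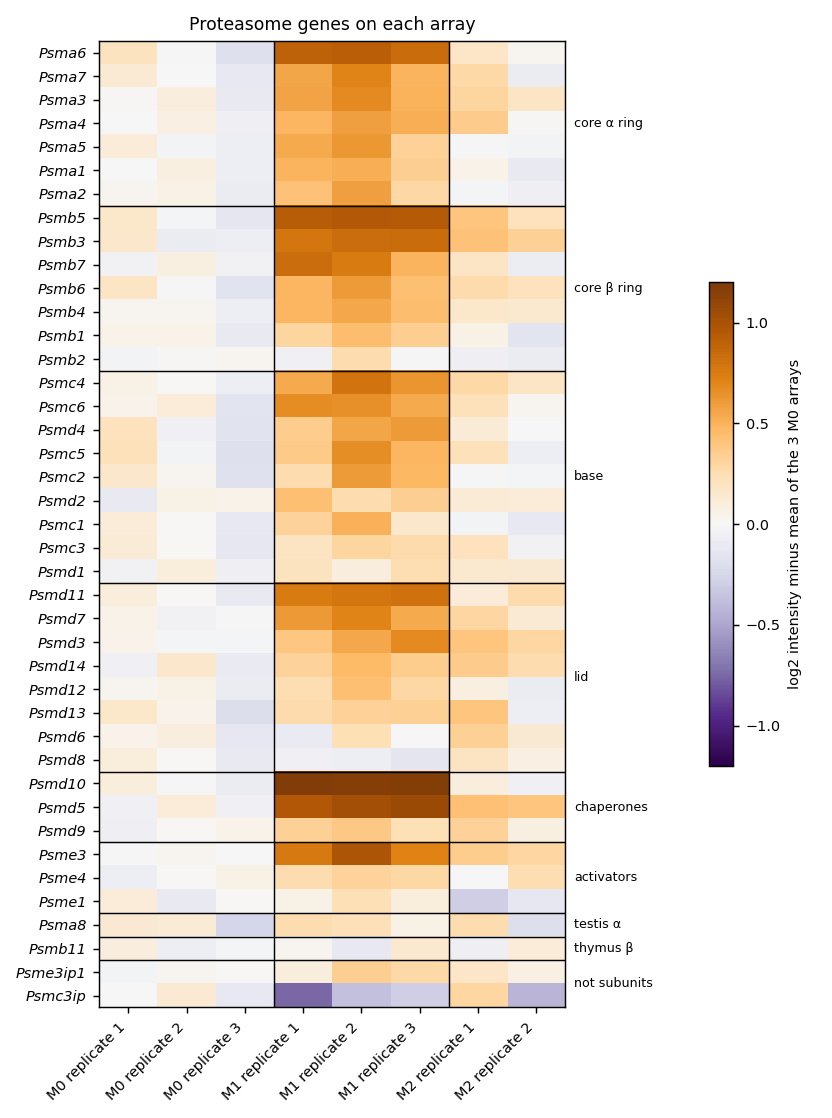
Log2 intensity of the 41 members (rows, by subcomplex) on each of the 8 arrays (columns), minus the mean of the 3 M0 arrays; orange is higher and violet lower than that mean. The M1 columns are orange for most core, base and lid genes, Psmd8, Psmd6 and Psmb2 stay pale, and M2 replicate 1 is more orange than M2 replicate 2.

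All 7 genes of the α ring rose in M1, by 0.43 to 0.88 on the log2 scale. The largest rise was that of Psma6, at 3340, 2882 and 2566 units in M0, 5410, 5475 and 5196 in M1 and 3294 and 2973 in M2. Every M1 array lay above every M0 and M2 array. The log2 difference from M0 was 0.88 (SE 0.11, adjusted p 1.1e-04 in limma) in M1 and 0.10 (adjusted p 0.70) in M2. Another bright probe of Psma6, with a mean of 2842 units, gave 1.06 in M1.

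Psma7 followed, with 1460, 1337 and 1237 units in M0, 1969, 2193 and 1887 in M1 and 1629 and 1263 in M2. Its rise in M1 was 0.58 (SE 0.12, adjusted p 0.0037). M2 replicate 1 was above the M0 range and M2 replicate 2 within it. Psma3, which had 2565, 2699 and 2359 units in M0, reached 3754, 4057 and 3597 in M1 and 3143 and 2881 in M2. The M1 and M2 arrays all lay above the M0 arrays, but only the M1 difference of 0.58 passed (SE 0.10, adjusted p 0.0011). In M2 it was 0.25 (adjusted p 0.21). Psma4, Psma5, Psma1 and Psma2 rose by 0.53, 0.50, 0.45 and 0.43, and the call of Psma2 was lost without M0 replicate 3 (adjusted p 0.053).

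In the β ring 6 of 7 genes rose in M1. Psmb5, the subunit with the chymotrypsin-like site, had 4670, 4098 and 3782 units in M0, 7944, 8055 and 7989 in M1 and 5502 and 4825 in M2. The M1 arrays lay close together and far above the others, and both M2 arrays were above the M0 range. The log2 difference was 0.94 in M1 (SE 0.11, adjusted p 4.4e-05), the largest of the 31 subunits, and 0.31 in M2 (SE 0.12, adjusted p 0.13).

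Psmb3, a β subunit with no cutting site, had 2190, 1854 and 1880 units in M0, 3378, 3502 and 3533 in M1 and 2635 and 2482 in M2. The 3 conditions did not overlap, with M2 between M0 and M1. It rose by 0.82 in M1 (SE 0.10, adjusted p 8.3e-05) and by 0.38 in M2 (SE 0.11, adjusted p 0.048). A second probe, with a mean of 2091 units, gave 0.93 in M1 and 0.15 in M2 (adjusted p 0.55), so the rise in M2 rests on 1 probe.

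Psmb7, with the trypsin-like site, had 2140, 2325 and 2136 units in M0, 3900, 3713 and 3093 in M1 and 2503 and 2083 in M2, and rose by 0.69 in M1 (SE 0.12, adjusted p 9.5e-04). Psmb6, with the caspase-like site, had 3956, 3469 and 3109 units in M0, 4899, 5315 and 4728 in M1 and 4216 and 4046 in M2, and rose by 0.51 in M1 (SE 0.11, adjusted p 0.0050). For Psmb6 both M2 arrays were above the M0 range too, by 0.24 in the means (adjusted p 0.27). Psmb4 and Psmb1 rose by 0.49 and 0.37, the latter not without M0 replicate 2, M0 replicate 3 or M1 replicate 2. A further probe of Psmb4, with a mean of 1925 units, gave 0.25 (adjusted p 0.28). The exception was Psmb2, with 1614, 1667 and 1682 units in M0, 1596, 1973 and 1635 in M1 and 1590 and 1552 in M2. Its log2 difference in M1 was 0.06, with a 95% interval of -0.17 to 0.29.

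The 3 immunoproteasome subunits that replace Psmb5, Psmb6 and Psmb7 were set beside them. Psmb8 had 4793, 4020 and 4324 units in M0, 6592, 6743 and 6633 in M1 and 3235 and 3126 in M2. Psmb9 had 2440, 2031 and 2363 units in M0, 3372, 3844 and 3403 in M1 and 1415 and 1313 in M2. Psmb10 had 3741, 2958 and 3359 units in M0, 4234, 4681 and 4476 in M1 and 4114 and 4266 in M2. All 3 rose in M1, by 0.61, 0.64 and 0.42. In M2 Psmb8 and Psmb9 fell, by 0.46 and 0.74 on the log2 scale, while Psmb10 had 0.33 (adjusted p 0.11). The fall of Psmb8 did not pass without M0 replicate 1 or either M2 array, nor the rise of Psmb10 in M1 without M0 replicate 2 or M1 replicate 2.

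The log2 ratio of each immunoproteasome subunit to its constitutive counterpart was compared on the same arrays, in 6 comparisons with M0. The ratio of Psmb8 to Psmb5 was lower on every M1 array than on any M0 array, with a difference of means of -0.33 (exact permutation test, two-sided, p 0.1, the smallest these arrays can give). Those of Psmb9 to Psmb6 and of Psmb10 to Psmb7 changed by 0.13 (exact p 0.4) and -0.27 (exact p 0.2) in M1, with overlapping arrays. In M2 the ratios for Psmb8 and Psmb9 were lower on both arrays than on any M0 array, with differences of -0.76 and -0.98 (exact p 0.1 each), and that for Psmb10 was 0.27 (exact p 0.4). The smallest p that 3 arrays against 3 or 2 arrays can give is 0.1, and adjusted over the 6 comparisons no p was below 0.2.

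**Figure D2:**
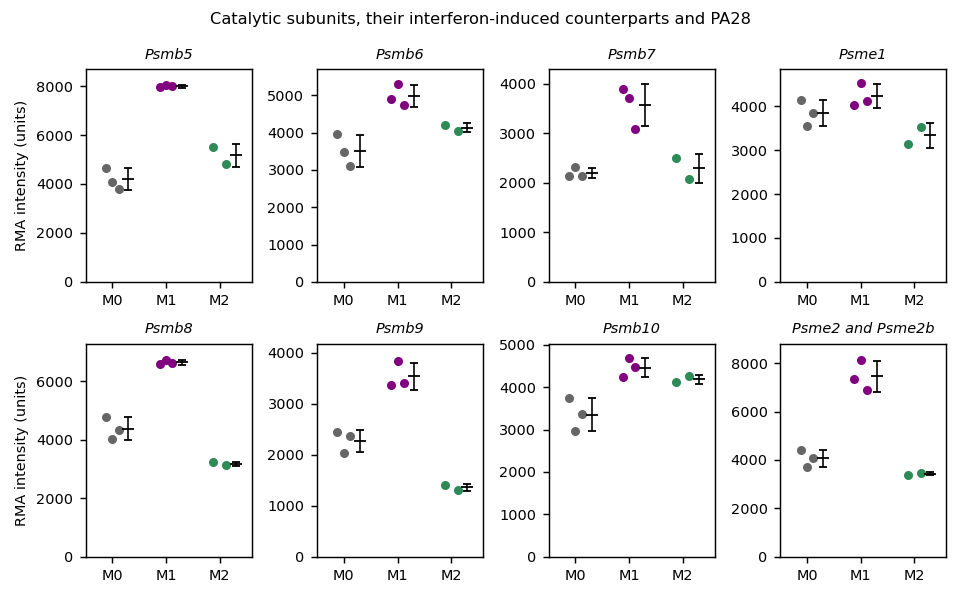
RMA intensity in units (linear axes from 0) of the 3 catalytic subunits, of Psme1, and below them of the immunoproteasome subunits and of the probe shared by Psme2 and Psme2b; points are arrays, and bars are means with SD. Psmb5 and Psmb8 are both highest in M1, with Psmb5 means of 4183, 7996 and 5164 units in M0, M1 and M2, and Psmb8 and Psmb9 are lowest in M2.

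Of the 9 base genes 6 rose in M1, among them 4 of the 6 ATPases. Psmc4 had 1094, 1054 and 997 units in M0, 1518, 1809 and 1629 in M1 and 1268 and 1187 in M2. The 3 conditions did not overlap. Its difference was 0.65 in M1 (SE 0.10, adjusted p 5.0e-04) and 0.23 in M2 (adjusted p 0.25). A second probe of Psmc4, with a mean of 695 units, gave 0.35 in M1 (adjusted p 0.15).

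Psmc6 had 960, 1004 and 840 units in M0, 1486, 1462 and 1351 in M1 and 1086 and 948 in M2, and rose by 0.62 in M1 (SE 0.11, adjusted p 0.0011). Psmd4, the ubiquitin receptor Rpn10, had 2486, 2077 and 1921 units in M0, 2745, 3170 and 3257 in M1 and 2333 and 2146 in M2. Its M1 arrays were above all M0 arrays, M1 replicate 1 by the least, and the difference was 0.50 (SE 0.12, adjusted p 0.0088). Psmc5, Psmc2 and the scaffold subunit Psmd2 rose by 0.50, 0.44 and 0.35, calls that were lost without 3, 4 and 5 of the 8 arrays in turn. Psmc1, Psmc3 and the scaffold subunit Psmd1 had 0.33, 0.25 and 0.18 and did not pass (adjusted p 0.064, 0.14 and 0.25).

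In the lid 5 of 8 genes rose in M1. Psmd11, which also takes part in joining the regulatory particle to the core, had 3317, 3095 and 2868 units in M0, 5199, 5308 and 5415 in M1 and 3333 and 3705 in M2. The M1 arrays stood far above the rest. Its difference was 0.78 in M1 (SE 0.10, adjusted p 1.0e-04) and 0.19 in M2 (adjusted p 0.35). Of 4 further probes of Psmd11 above 64 units in the mean, 3 rose and 1 did not pass (-0.02).

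Psmd7, the partner of the deubiquitinase, had 592, 555 and 566 units in M0, 875, 932 and 831 in M1 and 698 and 623 in M2, and rose by 0.62 (SE 0.10, adjusted p 5.4e-04). Psmd3 had 724, 690 and 692 units in M0, 919, 1024 and 1121 in M1 and 924 and 864 in M2, and rose by 0.54 (SE 0.10, adjusted p 0.0022). For Psmd3 M2 replicate 1 reached the M1 range, and M2 had a difference from M0 of 0.35 (adjusted p 0.072). Psmd14, the deubiquitinase Rpn11, rose by 0.38 and Psmd12 by 0.32, and both calls were lost when single arrays were left out.

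Psmd13, Psmd6 and Psmd8 did not pass. Psmd8, whose protein is a lid subunit like the others, had 5103, 4792 and 4424 units in M0, 4596, 4537 and 4298 in M1 and 5455 and 5007 in M2. Its M1 arrays lay within or just below the M0 range. With the probes chosen it was the only one of the 31 subunits with a negative difference in M1, -0.09 with a 95% interval of -0.30 to 0.12. Sem1, a gene of the regulatory particle that is not among the 31 by its symbol, also had -0.09 (adjusted p 0.66). Psmd6 had 0.04 (-0.21 to 0.30), while its second probe, with a mean of 824 units, had -0.32 (adjusted p 0.18). Psmd13 had 0.31 (adjusted p 0.14).

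**Figure D3:**
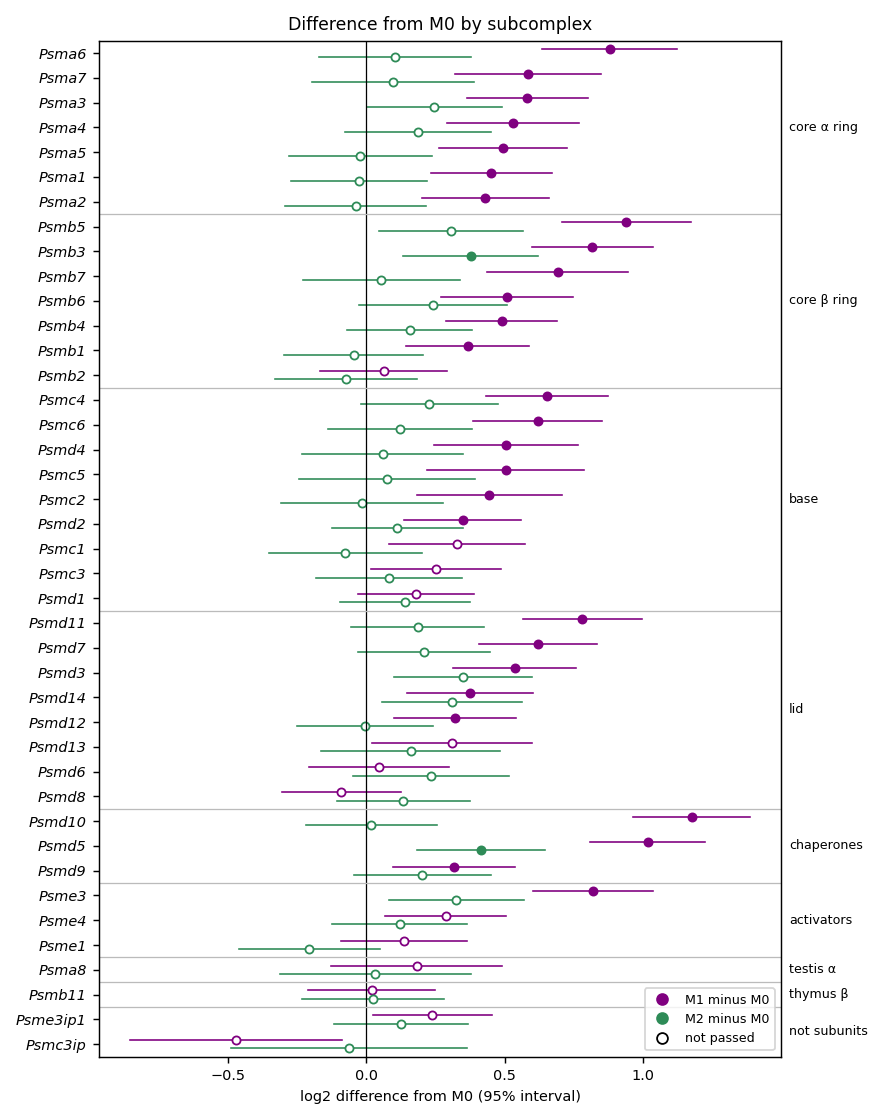
Log2 difference from M0 of each member in M1 (purple) and M2 (green), with the 95% interval of limma; filled points passed at an adjusted p under 0.05. The M1 points of 28 members are filled, the M2 points of 2, and the intervals of Psmd10 and Psmd5 in M1 lie furthest to the right.

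The chaperones of base assembly, which bind the ATPases and leave before the proteasome is complete, held the 2 largest rises of all members. Psmd10, also called gankyrin, had 641, 594 and 564 units in M0, 1365, 1341 and 1354 in M1 and 638 and 576 in M2. M2 overlapped M0 and M1 stood apart. Its difference was 1.18 in M1 (2.26-fold, SE 0.10, adjusted p 3.2e-06) and 0.02 in M2, with a 95% interval of -0.22 to 0.25.

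Psmd5 had 446, 498 and 448 units in M0, 903, 944 and 968 in M1 and 624 and 611 in M2. No condition overlapped another. It rose by 1.02 in M1 (2.02-fold, SE 0.09, adjusted p 8.7e-06) and by 0.41 in M2 (SE 0.11, adjusted p 0.023). With the probes chosen Psmd10 and Psmd5 were the only members with a rise of at least 2-fold in M1, against 2.8% of all genes. Psmd9 had 305, 319 and 330 units in M0, 400, 415 and 375 in M1 and 397 and 337 in M2, and its rise of 0.32 passed narrowly (SE 0.10, adjusted p 0.045). A dim second probe of Psmd9, with a mean of 49.1 units, gave -0.11 (adjusted p 0.56).

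Of the activators Psme3, the nuclear PA28γ, rose in M1. It had 255, 261 and 256 units in M0, 437, 507 and 423 in M1 and 330 and 316 in M2. The conditions did not overlap, with differences of 0.82 in M1 (SE 0.10, adjusted p 8.1e-05) and 0.33 in M2 (adjusted p 0.086). Another probe of Psme3, with a mean of 102 units, gave 0.02 in M1 (adjusted p 0.95), so the rise rests on 1 probe.

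Psme1 codes for the α subunit of PA28, which is known to respond to IFN-γ. It had 4150, 3562 and 3848 units in M0, 4024, 4543 and 4125 in M1 and 3144 and 3533 in M2. The M1 arrays overlapped the M0 arrays, and the difference was 0.14 (SE 0.10, adjusted p 0.46), with a 95% interval of -0.09 to 0.36. In M2 both arrays were below the M0 range (-0.21, adjusted p 0.32). The RefSeq promoter of Psme1 held an ISRE match just after its start.

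Psme2, the β subunit of PA28, shares its probe with the gene Psme2b and so is not among the 41. That probe had 4420, 3689 and 4085 units in M0, 7346, 8125 and 6889 in M1 and 3381 and 3469 in M2, a difference of 0.88 in M1 (SE 0.11, adjusted p 7.7e-05) and -0.24 in M2 (adjusted p 0.24). Psme4, a large activator of the nucleus, had 0.29 in M1 (adjusted p 0.066). Its 2 other probes above 64 units in the mean passed, with 0.34 and 0.45.

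The forms of other tissues were dim. Psma8, the α subunit of the testis, was at 25.8 to 36.9 units on the 8 arrays, and Psmb11, the β subunit of the thymus, at 14.5 to 17.4. Both were under the arrays' median, and neither passed in any comparison. The 2 genes that share only the letters code for proteins that are not subunits. Psme3ip1, whose product binds PA28γ, had 0.24 in M1 (adjusted p 0.12). Psmc3ip, which acts in recombination, had 110, 120 and 101 units in M0, 65.4, 85.2 and 89.7 in M1 and 136 and 81.9 in M2, a difference of -0.47 in M1 (SE 0.18, adjusted p 0.084).

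In M2 macrophages few members passed the threshold. Psmb3 and Psmd5 were higher than in M0, and the other 39 did not pass, against 8.03% of all genes higher and 6.43% lower. None was lower in limma, also at an unadjusted p under 0.05, where 7 were higher. At that unadjusted threshold 2661 of all 18193 genes were higher and 2109 lower. Of the 9936 genes with a mean of at least 64 units, 2213 were higher and 1708 lower there. The median difference over the 31 subunits was 0.12 (1.09-fold), against 0.01 over all genes. It was 0.10 in the core, 0.08 in the base and 0.20 in the lid. Both M2 arrays were above the M0 range in 17 of 41 members (24.2% of all genes) and below it in 2, Psme1 and Psmb2 (19.6%). Of the 9936 genes with a mean of at least 64 units, 3202 were above that range and 2468 below it. Among the same genes 1298 were called higher and 1051 lower in M2. Without M2 replicate 1 the medians of core and base were -0.0065 and -0.0020. The call of Psmb3 held only without M0 replicate 1, and that of Psmd5 was lost without M0 replicate 1, M0 replicate 3 or either M2 array. With the replicate number as a block 0 members were higher in M2, and the methods' t-test called 0 higher on either scale. With probes under a mean of 64 units left out before the adjustment, 4 passed, Psmb3, Psmd5, Psmd3 and Psme3.

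Set against each other, 20 members were higher in M1 than in M2, with 11.5% of all genes higher and 12.3% lower. Of the 9936 genes with a mean of at least 64 units, 1843 were higher and 1939 lower. No member was lower in limma, also at an unadjusted p under 0.05. The median log2 difference over the 31 subunits was 0.41, and it was 0.45 in the core, 0.43 in the base and 0.17 in the lid. All 14 core genes had M1 arrays above both M2 arrays (23% of all genes, and 3121 of those 9936), and 10 passed. In the lid the 2 genes that passed were Psmd11 (0.59, adjusted p 0.0020) and Psmd7 (0.41, adjusted p 0.018, lost without M1 replicate 2 or M2 replicate 2), while Psmd14 had 0.07, with a 95% interval of -0.19 to 0.32. Psmd10 had the largest difference, 1.16 (adjusted p 7.6e-06). The count fell to 6 without M2 replicate 2 and to 12 without M1 replicate 2, and it was 3 with the methods' t-test.

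Within a condition many subunits were high or low on the same array. Relative to the M0 mean, the median over the 31 subunits was 0.05, 0.01 and -0.11 on the 3 M0 arrays, 0.44, 0.59 and 0.44 on the M1 arrays and 0.20 and 0.02 on the M2 arrays. M0 replicate 3 had the lowest value of M0 in 26 of the 31, M1 replicate 2 the highest of M1 in 21, and M2 replicate 1 was above M2 replicate 2 in 30. The array medians over all probes were 40.3 units for M0 replicate 3 and 38.9, the lowest of the 8, for M1 replicate 2, and the part of such array differences in the results was not tested. The median difference of 0.12 between M2 and M0 lay between the values of the 2 M2 arrays.

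Of the 41 members 19 had a single probe. The others had 46 further probes, 25 of them with a mean of at least 64 units. Of those, 20 belonged to genes called higher in M1, and 12 were called higher as well, 8 did not pass and 0 were lower. Beside the cases given above, a further probe of Psmd7, with a mean of 107 units, had 0.14 in M1 (adjusted p 0.50), and 1 of Psmd4, with a mean of 157 units, had -0.11 (adjusted p 0.65). In M1 1 of Psma1, with a mean of 114 units, had 0.36 (adjusted p 0.19), and 1 of Psmb1, with a mean of 150 units, had 0.15 (adjusted p 0.56). For Psmc6 a second probe, with a mean of 202 units, had 0.87 in M1 and 0.49 in M2 (adjusted p 0.031), where the main probe had 0.12 in M2.

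Genes that build, steer or feed the proteasome under other names were followed in 5 lists. Over the 33 measured, 11 were higher and 2 lower in M1, where 13.7% of all genes were higher and 11.5% lower. In M2 8 were higher and 0 lower, where 8.03% of all genes were higher and 6.43% lower. Of the 9936 genes with a mean of at least 64 units, 22.6% were higher and 18.3% lower in M1. In M2 1298 of these were higher and 1051 lower. Of 7 factors of core assembly and inhibition, 1 rose in M1, the core chaperone Psmg2 (0.41, adjusted p 0.016). In M2 it was Psmg1 and Akirin2 that rose. Psmg1, the partner of Psmg2, had 390, 383 and 347 units in M0, 408, 500 and 463 in M1 and 674 and 610 in M2, with 0.78 in M2 (SE 0.12, adjusted p 0.0010) and 0.29 in M1 (adjusted p 0.089). Akirin2, which takes proteasomes into the nucleus, had 0.55 in M2 (adjusted p 0.0098) and 0.12 in M1. Both were lower in M1 than in M2, by 0.49 and 0.43 on the log2 scale (adjusted p 0.012 and 0.026). Pomp, the maturation factor of the core, had -0.05 in M1, with a 95% interval of -0.29 to 0.18.

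**Figure D4:**
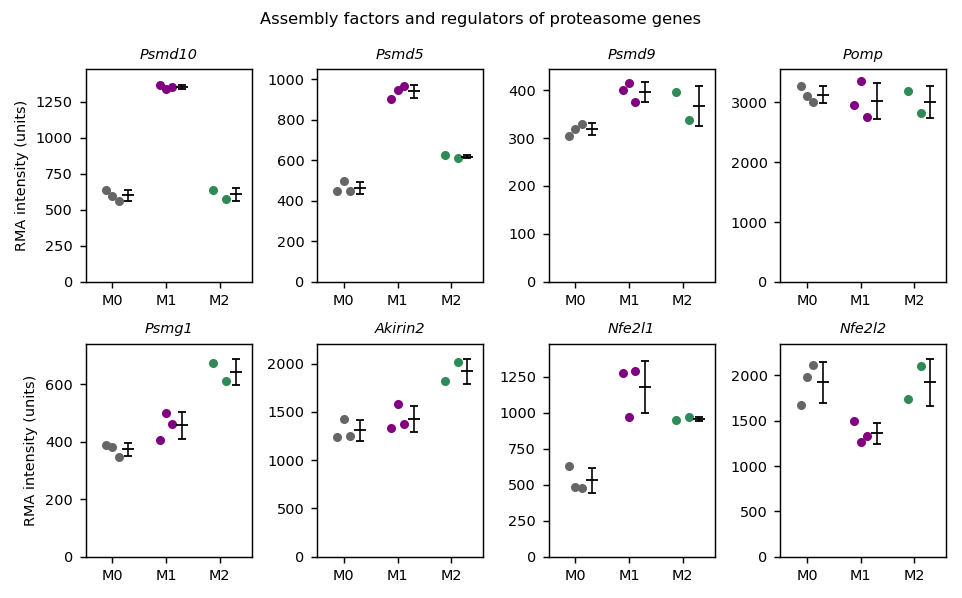
RMA intensity in units (linear axes from 0) of the 3 base chaperones, the core assembly factors Pomp and Psmg1, the nuclear import factor Akirin2 and the transcription factors Nfe2l1 and Nfe2l2; points are arrays, and bars are means with SD. Psmd10 is high in M1 alone (mean 1353 units, against 599 in M0), Psmg1 and Akirin2 are highest in M2, and Nfe2l1 is above M0 in both.

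Among genes of the NFE2L1 pathway, Nfe2l1 itself rose in both states. It had 633, 488 and 477 units in M0, 1276, 972 and 1293 in M1 and 950 and 970 in M2. Both stimulated groups lay above M0, with differences of 1.15 in M1 (SE 0.14, adjusted p 7.8e-05) and 0.86 in M2 (SE 0.16, adjusted p 0.0031). M1 and M2 did not differ past the threshold (0.29, 95% interval -0.05 to 0.63). Its partners Maff and Mafg rose in M1 by 0.94 and 0.68, and Nfe2l2, which codes for the related factor Nrf2, fell by 0.49 on the log2 scale (adjusted p 0.012), though a second probe of Nfe2l2 had 0.082. Of the 8 measured genes of this list, 3 rose and 1 fell in M1, and 1 rose in M2. Array levels of Nfe2l1 RNA say nothing of its protein, which is known to be controlled by cleavage.

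Of 6 measured genes of other names that belong to or bind the regulatory particle or core, Ecpas rose in M1 (0.36, adjusted p 0.039). In M2 Usp14, a deubiquitinase of the base, rose by 0.60, and Ube3c and Ecpas by 0.43 and 0.42. Among 11 genes that shuttle substrates or act with the unfoldase Vcp, 6 rose and 1 fell in M1. Those with the largest changes were Faf1 (0.68), Nsfl1c (0.64), Ufd1 (0.59) and Nploc4 (0.58), cofactors of Vcp, and the shuttle Ubqln2 fell by 0.53 on the log2 scale. Vcp itself had 0.23 in M1 (adjusted p 0.11). In M2 the shuttle Rad23b (0.39) and Zfand5 (0.33) were higher, and both were also among those higher in M1 (0.43 and 0.28). Among these genes the calls of Psmg2, Ecpas, Nfe2l2, Ubqln2 and Zfand5 in M1 and of Akirin2, Usp14, Ube3c, Ecpas, Rad23b and Zfand5 in M2 were each lost when some single array was left out.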

How the data were processed

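RNA of 8 cultures of bone marrow-derived macrophages (3 M0, 3 M1, 2 M2) was measured on Affymetrix Mouse 430 2.0 arrays. The authors normalized them with RMA in GenePattern and deposited intensity values on a linear scale for 45101 probes; RMA makes the arrays' distributions alike, so a shift of all genes at once would not be seen. The number of arrays limits the precision.

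The log2 was taken, 64 control probes were left out and 45037 probes were tested with limma 3.58.1 (R 4.3.3), in 1 fit of all 8 arrays, with condition as the only term (5 residual degrees of freedom, prior 6.95) and Benjamini-Hochberg adjustment over all probes. The procedure was run on simulated data with independent noise for each probe and array. Such data lack the shifts that many subunits shared on an array here, so the run does not cover them. Probes were named from a platform annotation that can be old, using the 34945 probes with 1 symbol (932 had several, 9160 were not listed), and the probe with the highest mean log2 stands for its gene. The log2 ratios of catalytic subunits were compared by exact permutation.

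Members and lists were chosen with earlier results of these data known. Every member may be named. Values on every array are given for up to 3 called members of each subcomplex with the largest change, for the catalytic subunits, PA28 and the tissue forms, and for others chosen after their values were seen (Psmb2, Psmd8, Psmc3ip, Psmg1, Nfe2l1). Of each list up to 4 called genes are named, and others likewise.

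Array titles carry WT1 to WT3, and whether these pair arrays across conditions is not stated in the sources used here. Same-numbered arrays deviated from their condition means with correlations of -0.172 to 0.0547 (7 pairs), against -0.150 to 0.190 for 14 others. Deviations cancel out within a condition, so these correlations depend on each other and cannot decide the pairing. The main fit did not treat the arrays as paired, and the replicate number as a block was an alternative. Promoters are RefSeq's on GRCm38.p6, searched with Python 3.11.15. Figures were drawn with matplotlib 3.10.9. The alternatives were other tests, fits, normalizations, floors, thresholds and probes, and each array left out.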

Additional observations from a re-analysis of the deposited data

How the results depend on the processing

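The count of members higher in M1 than M0 (28 of 41) was 19 to 30 under other tests, normalizations, floors and variance models, apart from 17 with the methods' t-test on linear values, 2 with a limit of 2-fold, and 9 of the 22 genes that have a second probe when that probe was used. The number lower was 1, Psmc3ip, in a fit of only the groups compared, with the mean of all probes and with the second brightest probe. The count higher in M2 (2) was 0 with either t-test, at an adjusted p under 0.01 and with the 2-fold limit, 1 in a fit of only the groups compared, after a further quantile normalization, with a floor of 64 units, with the mean of all probes and with the second probe, and 4 of 39 without dim probes. The count higher in M1 than M2 (20) was 3 with either t-test, 9 at an adjusted p under 0.01, 1 with the 2-fold limit, 8 of 22 with the second probe and 13 of 36 with the brightest probe of a plain type, and the number lower was 1 with the mean of probes and 2 with the second probe. Median log2 differences in M1 were 0.43 in the core (8 genes) and 0.20 in the lid (4 genes) with the second probe, and 0.29 in the base with the mean of probes. In M2 the second probe gave -0.080 in the core and 0.062 in the lid. Between M1 and M2 the core had 0.54 with the second probe and 0.34 with the plain type. Single genes turned with other probes. In M1 Psmd6 had -0.14 (mean of probes) and -0.32 (second probe), and Psmd9 had -0.035 (mean of probes) and -0.11 (second probe). Nfe2l2 had 0.082 in M1, and Vcp had -0.68 in M2 (adjusted p 0.00996). Between M1 and M2 the second probes of Psmc1, Psmd9 and Psme3 had -0.031, -0.38 and -0.019. Those of Psmc1 and Psmd9 were dim, with means of 8.16 and 49.1 units. The results with the second probe given above also include these and other probes under 64 units in the mean. The causes of these changes were not tested.

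With the replicate number as a block, 25 members were higher in M1, all of them among the 28, 0 were higher in M2 and 18 were higher in M1 than in M2.

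With each array left out in turn, the count higher in M1 was 20 (without M0 replicate 3) to 29, and the number lower 0 to 1 (Psmc3ip, without either M2 array). The count higher in M2 was 0 to 1, with 0 without M0 replicate 3 or either M2 array, and the count higher in M1 than M2 was 6 to 20, the number lower 0 to 1. A lone M2 array was assumed to vary like the other groups. Medians in M1 were 0.48 to 0.57 in the core, 0.37 to 0.54 in the base and 0.30 to 0.40 in the lid. In M2 they were -0.0065 to 0.18, -0.0020 to 0.15 and 0.13 to 0.31, and between M1 and M2 0.36 to 0.52, 0.35 to 0.47 and 0.076 to 0.31 (lowest in the lid without M2 replicate 2). The 8 members whose rise in M1 was lost without some array were Psma2, Psmb1, Psmc2, Psmc5, Psmd2, Psmd9, Psmd12 and Psmd14. The 2 M2 arrays limit every statement on M2, and the smallest log2 difference among members that passed in M1 was 0.32.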

Other observations

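Genes that carry proteasome products to MHC class I molecules were looked at beside the subunits. Of 5 measured, 4 were higher in M1 than in M0. Of all genes 13.7% were higher, and of the 9936 with a mean of at least 64 units 22.6%. Tap1, part of the peptide transporter, had 1611, 1356 and 1646 units in M0, 3532, 3441 and 3690 in M1 and 871 and 868 in M2. It rose by 1.21 in M1 (SE 0.10, adjusted p 4.3e-06 in limma) and was lower in M2, at -0.82 (adjusted p 5.2e-04). Tap2 rose by 1.10 in M1, the peptide trimmer Erap1 by 0.66 and Tapbp, which links the transporter to class I molecules, by 0.36, a call lost when any of the 6 M0 and M1 arrays was left out. B2m, the class I light chain, had 0.09 in M1 (adjusted p 0.61). Uba6, an activating enzyme of ubiquitin, was the only measured gene of 7 for ubiquitin and its activation, with -0.01 in M1 and 0.27 in M2 (adjusted p 0.14), and the other 6 were not analysed here.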
